A study of Arabidopsis thaliana with 14 samples.

Results

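Circular RNAs (circRNAs) are RNA molecules whose ends are joined into a ring, and they are recognized by reads that cross a junction in the reverse order of the genome (back-spliced reads). Of the 5861 circRNAs listed for *Arabidopsis thaliana*, 51 were assigned to 5 chloroplast genes that encode core proteins of the photosystems, chosen by the gene identifier in the list: psbD (ATCG00270), psbC (ATCG00280), psaB (ATCG00340), psaA (ATCG00350) and psbB (ATCG00680). The chloroplast gene psbA, which encodes the D1 protein of photosystem II and had 330 circRNAs, was not among them and was used for comparison. RNA depleted of ribosomal and linear RNA came from 14 samples of plants grown at 23 °C by day and 18 °C by night, with 16 h of light and 8 h of darkness. They comprised whole plants of stage 1.14, stage 3.90, stage 6.50 and stage 8.00, 5 organs (siliques, flowers, leaves, stems and roots), plants of stage 3.90 without stress or under drought (300 mM mannitol), salt (200 mM NaCl) or heat (38 °C), and a mixed sample that pooled 7 growth stages. Each condition had 1 library, and 1 value per circRNA was listed for the 14 samples as a whole, so no condition was compared with another and no value has a replicate error. The mixed sample was the exception, as it had a list of its own. The lists hold circRNAs only, so the labelled organs could not be set against marker genes.

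Photosystem II takes electrons from water and photosystem I passes them on towards the reduction of NADP. psbD encodes the D2 protein, which forms the reaction center of photosystem II together with D1, and psbC and psbB encode the chlorophyll-binding inner antenna proteins CP43 and CP47. psaA and psaB encode the large reaction center proteins of photosystem I, which together bind its primary electron donor. The coding sequences of these genes have no introns. They lie on the chloroplast genome (Pt, 154478 bp, TAIR10) at 32711 to 33772 for psbD, 33720 to 35141 for psbC and 72371 to 73897 for psbB, all on the plus strand, and at 37375 to 39579 for psaB and 39605 to 41857 for psaA, both on the minus strand. The end of psbD overlaps the start of psbC. All 51 circRNAs were listed as exonic, and no untranslated region is annotated for these genes.

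The circRNAs are named as in the list, without the prefix Ath_circ_, so that FC4623 stands for Ath_circ_FC4623. The sequences of 3 boundaries in psbC are shown first because these were joined to each other in all 3 possible pairs, among them FC4623, the circRNA with the most reads. Each window is the RefSeq sequence of the plus strand, 30 bases long, and the boundary named by its number lies in the middle of the 4 capitals, directly after that base.
site 34440: gacatgtatggttAGGTtccatttgtatat
site 34731: gacctacaggtttAGGTaaatacttaatgc
site 34923: ctcatgctcctttAGGTtcgttaaattctg
All 3 windows read AGGT at the boundary. Aligned on it, sites 34440 and 34731 had the same base at 15 of 30 positions, sites 34440 and 34923 at 14, and sites 34731 and 34923 at 11. The AGGT itself makes up 4 of these matches. Over all pairs of plus-strand psbC sites used more than once, the matches ran from 5 to 15.

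The junctions made from these boundaries are printed as a back-spliced read would show them, the last 15 bases of the circRNA followed by its first 15. Capitals mark a direct repeat, that is, bases found at both boundaries, within which the point of joining cannot be placed.
FC4623: ctcatgctccTTTAGGTaaatacttaatgc
FC4615: ctcatgctcctTTAGGTTCcatttgtatat
FC4614: gacctacaggtTTAGGTtccatttgtatat
FC4623 joined 34923 back to 34732 and had 63 reads. FC4615 joined 34923 to 34441 and had 10 reads, and FC4614 joined 34731 to 34441 and had 5. The repeat was 7 bases in FC4623, 8 in FC4615 and 6 in FC4614. FC4615 thus covered the stretches of both other circRNAs end to end.

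On the minus strand of the same stretch a second chain of boundaries was used, and 2 of the 3 sites shown again read AGGT. The third, site 34428, served only as an end and read ATGT. The sequences below are those of the minus strand, with the 4 bases around the boundary in capitals, and below them 2 of the junctions, with the repeat in capitals.
site 34719: tacctaaacctgtAGGTccttgagcagacc
site 34629: cttctggccccgtAGGTccgtaaaactcac
site 34428: aacctaaccatacATGTcctccaattatat
FC4613: aacctaaccatacatGTCCTtgagcagacc
FC4612: aacctaaccatacatGTCCgtaaaactcac
FC4613 (34429 to 34719) had 16 reads and FC4612 (34429 to 34629) had 3. FC4619 (34630 to 34917) and FC4622 (34720 to 35137), chosen after their values were seen, carried the chain on from sites 34629 and 34719 with 4 and 8 reads. Their other boundaries, at 34917 and 35137, read AGGA and AGTT. FC4613 and FC4614 had the same span of 291 bp on opposite strands and lay 12 bases apart.

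In psaA a pair of circRNAs on the plus strand, opposite to the gene, shared 1 boundary, and their windows and junctions are given for comparison with psbC.
site 41529: ccacctgagcactAGGTccaatgtgagtag
site 41713: agcatcagcatgtAGGTtccagatccaagt
site 41739: aagtggtagtatcAGGTcccttagctattg
FC4664: agcatcagcatgTAGGTccaatgtgagtag
FC4665: aagtggtagtatcAGGTCCaatgtgagtag
FC4664 (41530 to 41713) had 2 reads and a repeat of 5 bases. FC4665 (41530 to 41739) had 3 reads and a repeat of 6 bases. All 3 boundaries read AGGT.

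Repeats this long were the exception: the median was 2 bases over the 51 junctions, and 16 had none. The junctions with the most reads in psbB, psaB and psbD show the range, from no shared base in FC4729 and FC4655 to 3 in FC4602 and, in a psbB circRNA with fewer reads, 5 in FC4722.
FC4729: gatttggatgctcaaacggaattgttagag
FC4722: gctatttggcattgGGTATgttcgttatac
FC4655: ttatggcagggtaacatttcttggttcatc
FC4602: cactaggtcaatctGGTggtctatgggctt
FC4729 and FC4722 came from psbB with 16 and 7 reads, FC4655 from psaB with 5 and FC4602 from psbD with 3.

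The genes differed widely in the number of circRNAs. psbC, the CP43 gene, had 26 of the 51, and psbB, the CP47 gene, had 14. Both photosystem I genes are longer but had fewer, 6 in psaB and 3 in psaA, and psbD, the D2 gene, had 2. By number psbC stood 4th, psbB 6th and psaB level with 3 other genes at 8th among the chloroplast genes. Per kb of coding sequence there were 18.3 circRNAs in psbC (95% Poisson interval 11.9 to 26.8), 9.17 in psbB (5.01 to 15.4) and 2.72 in psaB (0.999 to 5.92). psbD had 1.88 per kb (0.228 to 6.80) and psaA 1.33 (0.275 to 3.89). The intervals of psbC and psbB overlapped, as did those of psaB, psbD and psaA, while that of psbC lay above all of the last 3. The interval of psbB overlapped those of psaB and psbD and lay above that of psaA. Such intervals cover counting error only.

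**Figure D1:**
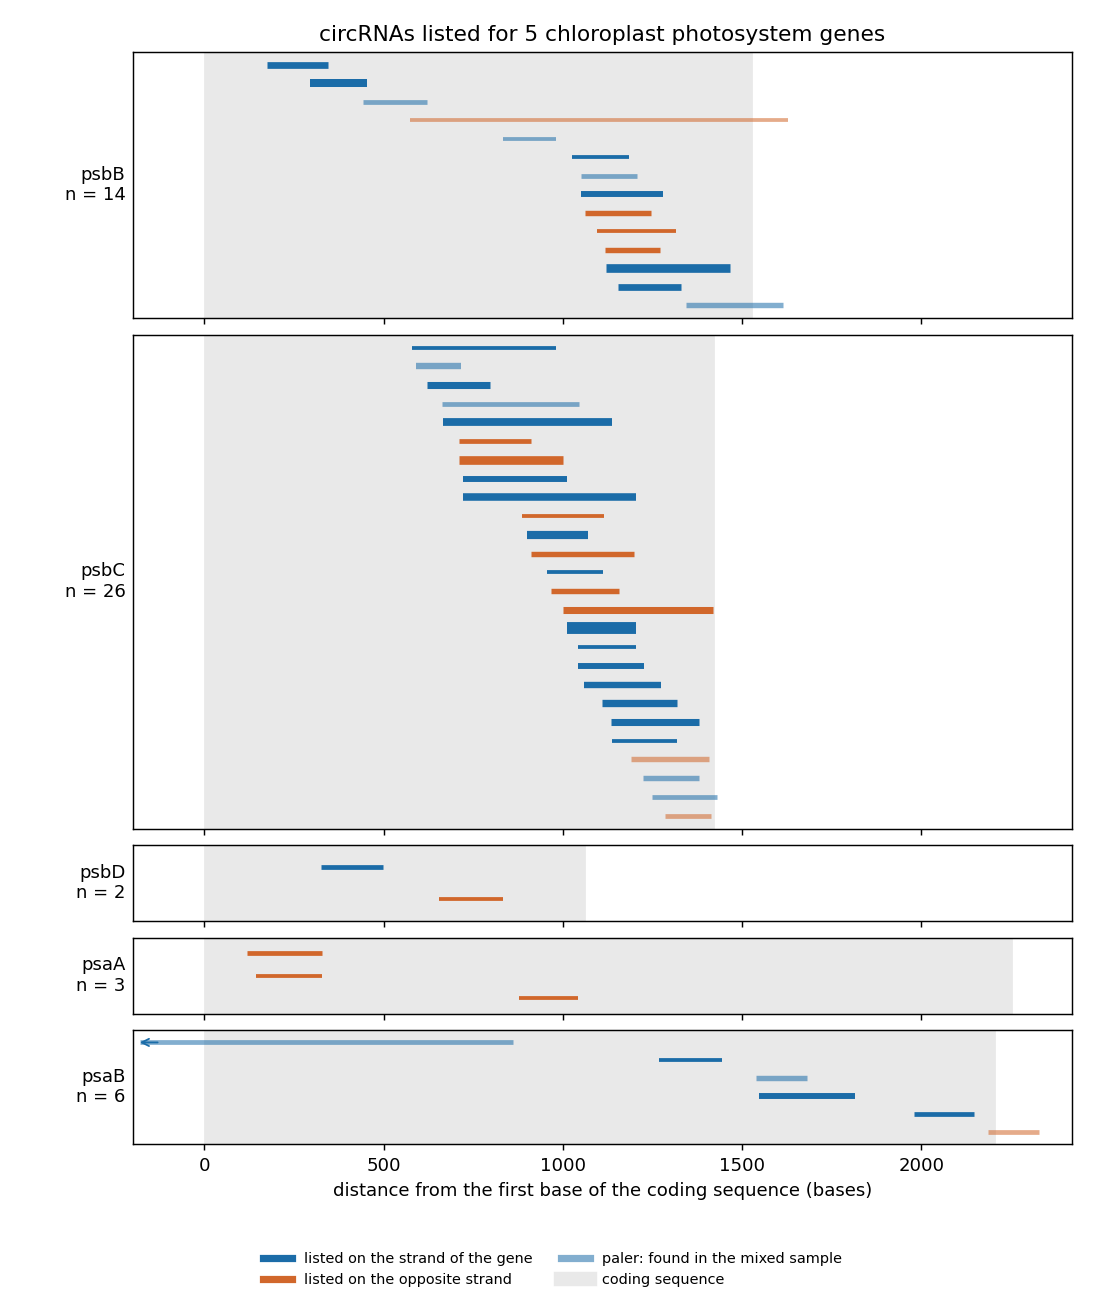
Position of the 51 circRNAs in the 5 genes, with distance from the first base of the coding sequence in bases on the x axis and 1 bar per circRNA. Bars are thicker with more reads (on a log2 scale), blue on the strand of the gene and orange on the other, paler when found in the mixed sample, and the arrow marks 1 psaB circRNA that runs on beyond the plot. All 26 psbC bars begin at base 578 of the gene or later.

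The number was set against coding length over the 50 named chloroplast genes with at least 1 circRNA (exact binomial test, two-sided, Benjamini-Hochberg adjusted). At an adjusted p under 0.05, 38% of the genes passed with fewer circRNAs than their share of length and 8% passed with more. Genes without a coding sequence entered with their whole annotated length, such as trnK with 2631 bases, which passed with fewer. Of the 5 photosystem genes, 3 were among those that passed with fewer. psaA had 0.106 times the number its length would give (adjusted p = 1.7e-08, exact binomial test), psaB 0.218 times (adjusted p = 4.7e-06) and psbD 0.151 times (adjusted p = 0.0012). psbC at 1.46 times (adjusted p = 0.0885) and psbB at 0.733 times (adjusted p = 0.375) did not pass this exact test. Much of this scale was set by psbA. With psbA left out, an alternative added after the data were seen, psbC had 3.61 times its share (adjusted p = 2.1e-07, exact binomial test), psbB 1.81 times (adjusted p = 0.116), psaB 0.537 times (adjusted p = 0.277), psbD 0.371 times (adjusted p = 0.369) and psaA 0.263 times (adjusted p = 0.0231). Genes with no circRNA were not part of either comparison, which raises the number expected of every other gene. They were then included, again after the data were seen, over 129 annotated genes, each copy in the inverted repeat counted, of which 79 had no circRNA. Of the 129, 17.1% passed below their share and 6.98% passed above it. psbC then had 3.30 times its share (adjusted p = 2.7e-06, exact binomial test) and psaA 0.241 times (adjusted p = 0.0185), while psbD at 0.340 times (adjusted p = 0.371), psaB at 0.492 times (adjusted p = 0.236) and psbB at 1.66 times (adjusted p = 0.235) did not pass. Only psaA passed below its share in all 3 comparisons, and the calls for psbD and psaB were lost in the second and in the third. CircRNAs of 1 gene overlap and are not independent.

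The other chloroplast genes of photosynthesis ranged from 0 to 330 circRNAs. Of 28 genes for photosystem subunits, the cytochrome b6f complex, the ATP synthase and the large subunit of Rubisco, 17 had a circRNA and 11 had none. By the same exact test 3 of the 17 had more than their share of length, namely psbA, psbJ (15 circRNAs with 570 reads), which encodes a small subunit of photosystem II, and rbcL (32 circRNAs with 132 reads), the Rubisco gene. In atpA and petA the number was below the share, and 12 genes did not pass. psbJ is 123 bases long, and all 15 of its circRNAs were in the mixed sample. The median span over the other chloroplast genes without psbA, psbJ among them, was 195 bp. How far the assignment to genes, described below, set the psbJ call or left the 11 genes with none was not tested.

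The listed value, used as a number of back-spliced reads, summed to 311 over the 51 circRNAs, 0.567% of the 54873 in the list. psbC held 206 of them (66.2%), psbB 73, psaB 20, psaA 7 and psbD 5. A minimum of 2 reads had been set by the authors, and 13 of the 51 circRNAs were at this minimum, while 19 had at least 5 reads and 7 had at least 10. The median was 4 reads, against 5 over the other chloroplast genes and 4 over those genes without psbA. For circRNAs of the mixed sample the listed value equalled the count of that 1 library, as described below. Such circRNAs made up 27.5% of the 51, 34.3% over the other chloroplast genes and 76.4% over those without psbA. The medians and the sums per gene thus mix unlike values in unlike proportions.

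In psbC the reads ran from 2 to 63 with a median of 4.5. FC4623 held 30.6% of the reads of the gene and stood well apart from the next, FC4613 with 16 and FC4618 (34620 to 34788) with 13. Without FC4623, psbC still had 143 reads, more than the other 4 genes together. In psbB the reads ran from 2 to 16 with a median of 4, led by FC4729 (73491 to 73837) with 16, FC4723 (72666 to 72824) with 12, and FC4722 (72546 to 72715) and FC4730 (73525 to 73700) level at 7. The psaB circRNAs had 2 to 5 reads, led by FC4655 (37765 to 38033) with 5 and FC5408 (37899 to 38042) with 4, and FC4654 (37434 to 37601) had 3. In psaA, FC4665 had 3 reads and the other two, FC4664 and FC4661 (40816 to 40980), had 2 each. In psbD, FC4602 (33036 to 33209) had 3 and FC4604 (33364 to 33542) had 2. All 7 circRNAs with 10 or more reads among the 51 came from psbC or psbB, the inner antenna genes of photosystem II. These genes also had 26 and 14 of the 51 circRNAs. The ranges of all 5 genes overlapped at the low end.

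**Figure D2:**
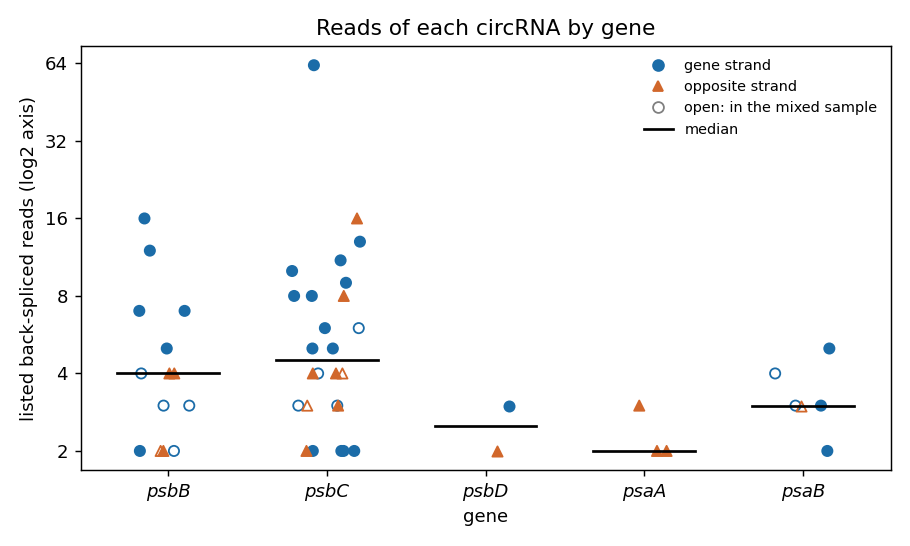
Listed back-spliced reads of each circRNA (y axis, log2 scale) by gene, with circles for the strand of the gene, triangles for the opposite strand, open symbols for those of the mixed sample and a line at the median. psbC spans 2 to 63 reads and psbB 2 to 16, while psaB, psaA and psbD stay at 5 or fewer.

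The circRNAs were short. The median span was 185 bp, and 43 of 51 were at most 300 bp long. By gene the median was 205 bp in psbC, 177 bp in psbB, 172 bp in psaB, 184 bp in psaA and 176.5 bp in psbD, so the genes differed little. Over the other chloroplast genes without psbA it was 195 bp, in psbA 291.5 bp and in the whole list 450 bp. The shortest was FC5116 of psbC (34310 to 34435, 126 bp, 6 reads), the shortest of psbB was FC5858 (73202 to 73352, 151 bp, 2 reads), and the longest but 1 was FC5857 of psbB (72944 to 73997, 1054 bp, 2 reads). A span that was a multiple of 3, which would keep the reading frame around the ring, was found in 23 of 51 (45.1%, Wilson 95% interval 32.3 to 58.6), against 35.6% of the whole list, which lay inside the interval.

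Within the genes the circRNAs were unevenly placed. In psbC none of the 26 circRNAs assigned to the gene used the first 40.6% of the coding sequence: the first base used was base 578, and the midpoints of 24 of 26 circRNAs lay beyond 50% of the coding length. Some circRNAs listed as intergenic, described below, did have an end in that stretch, such as FC4607 (33684 to 33899, 4 reads), chosen after its values were seen. AG and GT, the dinucleotides that flank these junctions, were found 35 and 36 times on the gene strand before the middle of the gene and 41 and 47 times after it, and on the opposite strand they were found 49 times (AG) and 34 times (GT) before it and 57 and 32 times after it. Together the psbC circRNAs covered 845 of 1422 bases, and up to 12 overlapped at 1 base. In psbB, 11 of 14 midpoints lay beyond 50% and 9 circRNAs overlapped at bases 1155 to 1186 of the gene. There AG was found 31 times before the middle and 47 times after it on the gene strand, and GT 54 and 49 times. In psaB 4 circRNAs lay inside the gene, and their midpoints were all beyond 50%. The midpoint of FC5532 lay just past the end of psaB, and that of FC5533, which spans 68175 bp, lay far outside it. By contrast, all 3 psaA circRNAs lay in the 5′ part of the gene.

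All 51 circRNAs had AG directly before the first base and GT directly after the last base when read on the listed strand. None could then have them on the opposite strand, where the same bases read AC and CT. The same held for all 909 chloroplast circRNAs at the listed ends. These are the bases that flank exons in spliced nuclear genes, here in genes without introns, and find_circ, the program used, searches for them. The listed strand was thus the strand on which these bases were read, and whether the RNA itself came from that strand cannot be told apart from the list.

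With that limit, 34 of 51 circRNAs (66.7%, Wilson 95% interval 53.0 to 78.0) were listed on the strand of the gene, and they held 243 of the 311 reads. In psbC 18 of 26 were on the gene strand (69.2%), with 162 reads against 44 on the other. In psbB 10 of 14 were (71.4%), with 61 reads against 12, and in psaB 5 of 6. psaA stood apart with 0 of 3, and psbD had 1 of 2. Of 12 chloroplast genes with at least 5 circRNAs, each set against all other circRNAs with a chloroplast gene (Fisher's exact test, two-sided, Benjamini-Hochberg adjusted), 16.7% passed. None of the 3 photosystem genes tested was among them. The share was 69.2% in psbC against 47.9% in the rest (adjusted p = 0.104, Fisher's exact test), and in psbB and psaB the adjusted p was 0.173 in both. psbA, with 135 of 330 on its own strand (40.9%), made up most of that background. Against the rest without psbA, where 60% were on the gene strand, the adjusted p of psbC was 0.570 in the exact test.

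The mixed sample held 14 of the 51 circRNAs (27.5%, Wilson 95% interval 17.1 to 40.9), with 47 of its 8987 reads, 0.523% (0.394 to 0.695). The interval for reads takes each read as independent, although the 47 came from 14 circRNAs of 1 library, and is thus too narrow. psbC gave 6 of them: FC5116 with 6 reads, FC5403 (34910 to 35127) and FC5404 (34942 to 35100) with 4 each, and FC5528 (34381 to 34763), FC5529 (34969 to 35149) and FC5530 (35003 to 35132) with 3 each. None of these was FC4623 or another of the circRNAs between the AGGT sites shown above. psbB gave 5, namely FC5422 (73714 to 73985) with 4 reads, FC5540 (72813 to 72990) and FC0108 (73422 to 73577) with 3 each, and FC5857 and FC5858 with 2 each. psaB gave 3, namely FC5408 with 4 reads, and FC5532 (37251 to 37393) and FC5533 with 3 each. psaA and psbD gave none, and with 3 and 2 circRNAs in the list little could be read from that.

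Of the same 12 genes, 50% differed from the rest in the share found in the mixed sample (Fisher's exact test, Benjamini-Hochberg adjusted), and none of the photosystem genes did: psbC had 23.1% against 34.2% (adjusted p = 0.438), psaB 3 of 6 (adjusted p = 0.547) and psbB 35.7% (adjusted p = 1). Here too the background turned on psbA, of which 13.3% were in the mixed sample. Against the rest without psbA, of which 70.5% were, psbC was lower (adjusted p = 2.5e-05, Fisher's exact test). That rest held genes found only in the mixed sample, such as rpl33 (30 of 30) and psbJ (15 of 15). With psbA kept and both ends inside the gene, psbC had 20% against 16.6% (adjusted p = 0.687, Fisher's exact test). The call thus depended on the circRNAs compared. How far the assignment to genes, described below, set it was not tested. For all 1217 circRNAs of the mixed sample the listed value equalled the count of that sample, so for these it holds no reads of the other samples. Whether the other samples had such reads cannot be told from the lists. The 14 ran from 2 to 6 reads with a median of 3 and the 37 others from 2 to 63 with a median of 4.

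Whether a circRNA stayed inside its gene moved with the list it came from. All 37 circRNAs outside the mixed sample lay within the coding sequence, and the 5 that reached past it were all in the mixed sample: FC5529 by 8 bases, FC5422 by 88, FC5857 by 100, FC5532 by 124 and FC5533 by 67313. A further 49 circRNAs with an end in 1 of the 5 genes, none of them in the mixed sample, were listed as intergenic and so are not among the 51. They had 216 reads. Of these, 15 were at most 10000 bp long, with 102 reads, and 34 were longer, with 114 reads. Of these 34 circRNAs, 15 had their other end in psbA. The most reads among the 34 were 11, in FC4299 (511 to 39840), chosen after its values were seen, which had an end in psaA. The numbers per gene given above thus leave out circRNAs that cross the end of a gene in the 13 separate samples.

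psbC had the most of the short ones, 9 with 86 reads, of which 3 also had an end in psbD. Those named here were chosen after their values were seen. FC4637 (34951 to 35149) had 24 reads and FC4632 (34856 to 35149) had 21, more than every listed psbC circRNA but FC4623. FC4635 (34924 to 35162) had 14, and FC4633 (34856 to 35162) and FC4634 (34924 to 35149) had 8 each. FC4634 and FC4635 began directly after site 34923, and FC4632 and FC4633 directly after 34855, both AGGT boundaries of listed psbC circRNAs, and FC4632, FC4634 and FC4637 ended with FC5529 at 35149. The short intergenic circRNAs of all named chloroplast genes were then added, and those with ends in more than 1 gene were counted for each. psbD went from 2 circRNAs to 5 and from 0.151 to 0.282 times its share of length (adjusted p = 0.0020, exact binomial test), the largest relative change in number of the 5 genes. With the 9 included psbC had 35 circRNAs, 1.47 times its share of length (adjusted p = 0.0443, exact binomial test), with 71.4% on the gene strand (adjusted p = 0.0240, Fisher's exact test).

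FC5533, a psaB circRNA with 3 reads, spanned 68175 bp on the minus strand from 38718 to 106892. Its far end lay in rrn23S (104691 to 107500), a gene of the ribosomal RNA of the large subunit, in the inverted repeat of the chloroplast genome. The last 60 bases there have a second copy on the opposite strand at 131757 to 131816, so the position of that end is not unique. The list gave predicted sites for 236 microRNAs in this span, against 6 in FC5857 and 1 each in FC5858 and FC0108, and none in the other mixed circRNAs of these genes.

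Most recurring ends were in psbC, which also had 26 of the 51 circRNAs. Of the 51 circRNAs, 15 (29.4%, Wilson 95% interval 18.7 to 43.0) had a start or an end at exactly the base used by another circRNA of the same gene and strand, and 11 of these were in psbC (11 of 26, 42.3%). The others were FC4664 and FC4665 in psaA and, in psbB, FC0108 and FC4725 (73422 to 73649, 5 reads), which both started at 73422. psaB and psbD had none. In psbA the share was 99.7%, and in the other genes without psbA 50.9%. A recurring end needs another circRNA of the same gene and strand, so this share can rise with the number of circRNAs alone. psbC had 18 and 8 on its 2 strands, psbB 10 and 4, and psaB 5 and 1, while psbA had 330 in all. Whether ends recurred more often than these numbers give was not tested.

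The 51 circRNAs used 89 boundaries, of which 77 were used once. The end at 34923 in psbC was used 3 times, by FC4615, FC4623 and FC4624 (34762 to 34923, 2 reads). Of the 12 boundaries used more than once, 10 were in psbC, which had 41 of the 89. Of the 10, 4 served as the start of 1 circRNA and the end of another. They lay at 34731 and 34855 on the plus strand and 34629 and 34719 on the minus strand. A boundary in both roles must read AGGT, given the flanking bases above. AGGT stood at 17 of the 89 boundaries and at 7 of the 12 used more than once, but 4 of these 7 were the boundaries in both roles. The motif, searched as AGGT on both strands, occurred 3.84 times per kb, both strands together, in the 5 genes and 2.87 times in the whole chloroplast genome. As every boundary already carries AG or GT, these rates are not the rate to be awaited at boundaries. psbC holds 9 on its own strand and 11 on the other, and its circRNAs used 4 of each, so most copies were not used.

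**Figure D3:**
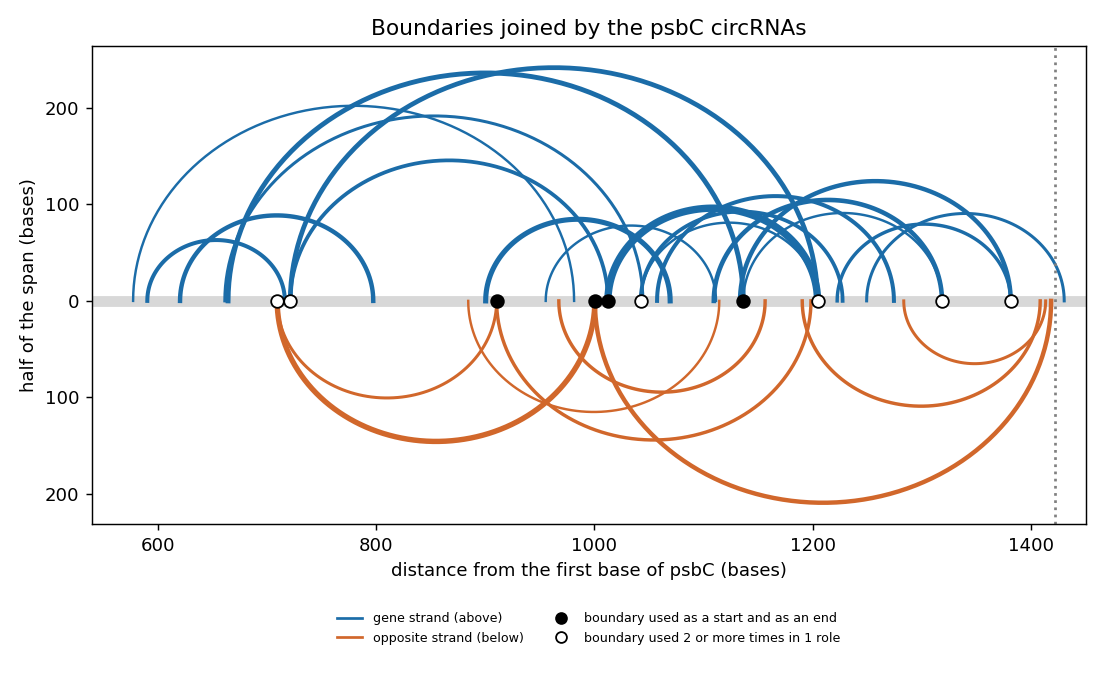
Boundaries joined by the 26 psbC circRNAs, with distance from the first base of the gene on the x axis and the height of each arc, in bases, equal to 50% of the span. Arcs above the line are on the gene strand and arcs below on the other, thicker with more reads, circles mark the 10 boundaries used more than once, filled for the 4 used as a start and as an end, and the dotted line is the end of the gene.

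A direct repeat of at least 4 bases shared by both ends was found in 11 of 51 circRNAs (21.6%, Wilson 95% interval 12.5 to 34.6): 6 in psbC, 2 in psbB, 2 in psaA and 1, FC5408, in psaB. The share was 17.0% in the other genes without psbA (12 to 23.4), 4.55% in psbA (2.77 to 7.36) and 7.78% among intergenic chloroplast circRNAs (5.44 to 11). The interval of the 5 genes thus overlapped that of the other genes and lay above those of psbA and the intergenic circRNAs. The 11 held 119 of the 311 reads (38.3%), 63 of them from FC4623, and their median of 4 reads was close to the 3.5 of the other 40. Of the 11, 7 also had a recurring end. Ends that both read AGGT share at least these 4 bases, so the repeats and the AGGT boundaries are not separate observations.

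**Figure D4:**
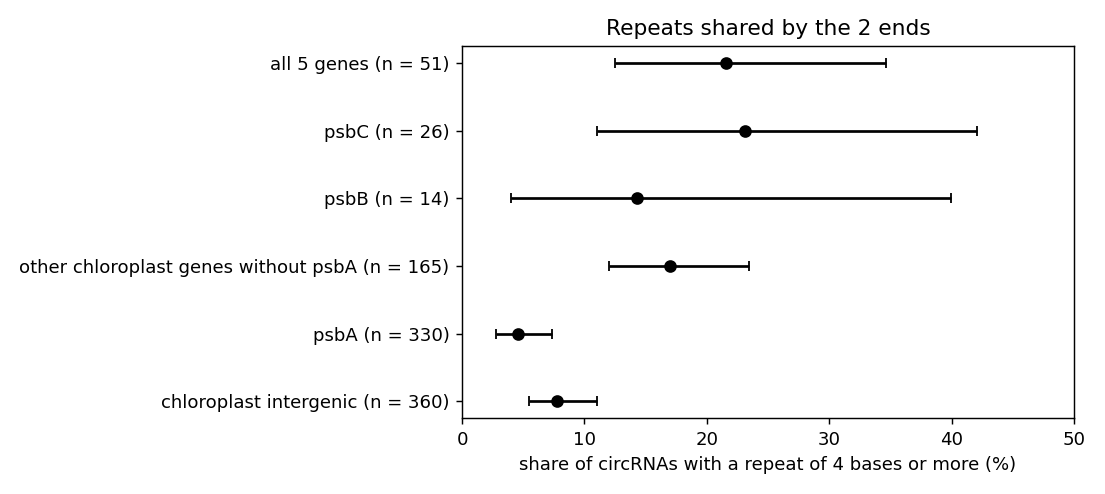
Share of circRNAs whose ends share a direct repeat of 4 bases or more (x axis, percent), with Wilson 95% intervals that cover counting error only, for the 5 genes together, psbC, psbB and 3 comparison groups of chloroplast circRNAs. The 5 genes are at 21.6%, the other genes without psbA at 17.0% and psbA at 4.55%.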

How the data were processed

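The 5 genes, the lists of genes and the tests were chosen with earlier results of these data known. Strand-specific libraries were made after depletion of ribosomal RNA and RNase R digestion. The authors aligned reads to TAIR10 with TopHat2 and Bowtie2 (2.0.5), predicted circRNAs with find_circ and kept those with at least 2 unique back-spliced reads. In the list of 14 samples the authors deposited 1 score per circRNA, headed as a mean of junction read counts and made of whole numbers. For the mixed sample they deposited a count of back-spliced reads per circRNA, without normalization. The depth of the separate samples is not given in these lists. The number of microRNAs with a predicted site was copied as the authors deposited it.

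Starts in the list count from 0, since each listed length was end minus start, and 1 was added. Of 53 chloroplast gene identifiers, 50 were named, 39 by the gene number in the mixed list and 11 by overlap with the annotation. Sequences are from RefSeq TAIR10.1, whose chloroplast sequence is that of TAIR10. Exact binomial tests ran over the 50 named genes with at least 1 circRNA and Fisher's exact tests over the 12 with at least 5, with Benjamini-Hochberg adjustment and a threshold of 0.05, and were tested on simulated data. Alternatives were at least 3 or 5 reads, circRNAs of at most 10000 bp, both ends inside the gene, circRNAs outside the mixed sample and tolerances at the ends; leaving out psbA, adding genes with no circRNA, adding intergenic circRNAs and leaving out the top circRNA were chosen after seeing the data. Circular RNAs named were, in each gene, the 3 with the most reads, the shortest, the longest, those of the mixed sample and those at the most used ends, and others are marked. Python 3.11.15, numpy 2.4.6, pandas 2.3.3, scipy 1.17.1 and matplotlib 3.10.9 were used.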

Additional observations from a re-analysis of the deposited data

How the results depend on the processing

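Of 165 alternative values, 133 kept their direction and their side of the threshold or moved little. Leaving out psbA changed most calls: the ratio to coding length became 0.371 in psbD (adjusted p = 0.369, exact binomial test) and 0.537 in psaB, both no longer past the threshold, 3.61 in psbC, now past it, and 1.81 in psbB, which turned above 1. With the genes that had no circRNA the ratios moved the same way, to 0.340 in psbD, 0.492 in psaB, 3.30 in psbC and 1.66 in psbB. The psbC ratio also passed with both ends inside the gene (1.76, adjusted p = 0.0179, exact test) and with the intergenic circRNAs (1.47). The share on the gene strand passed in psbC with at least 5 reads (84.6%, adjusted p = 0.0170, Fisher's exact test), outside the mixed sample (70.0%, adjusted p = 0.0494) and with the intergenic circRNAs (71.4%), and in psbB with at least 5 reads (100% of 5, adjusted p = 0.0358, exact test). In all of these the rest still held psbA. Without psbA, at all read numbers, the share did not pass in psbC (69.2% against 60%, adjusted p = 0.570, Fisher's exact test) or in psbB (71.4% against 60.4%, adjusted p = 0.631). The share found in the mixed sample turned against the rest in psbC with both ends inside the gene (20%), in psaB without psbA (50% against 65.2%), and in psbB at 3 reads (30%), at 5 reads (0%) and without psbA (35.7% against 66.8%), none of them past the threshold, and without psbA the psbC share of 23.1% passed. The cause of these changes was not tested, beyond the change of the comparison group. The median of reads over the 5 genes was 8 with at least 5 reads and the mean 6.10, the share with a recurring end was 15.8% with at least 5 reads, and the share flanked by AG and GT was 0% with ends shifted by 1 base up or down, as it must be once AG and GT are at the listed ends. No paired analysis was possible because each condition had 1 library and no value per separate sample was used. Low read numbers limit these results, as 13 of 51 circRNAs had only 2 reads.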
